A study of Mus musculus with 8 samples.

Results

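The genes described are 10 members of the feedback and target program of FGF-ERK signalling, namely Dusp4, Dusp6, Spry2, Spry4, Spred1, Etv4, Etv5, Egr1, Fos and Ier3, out of 24542 gene symbols counted by RNA-seq. They were picked by symbol, and all 10 were found in the tables of all 8 samples. The cells were TX1072, a female mouse embryonic stem cell (ESC) line from a cross of Cast and B6 mice, in which doxycycline (DOX) switches on the endogenous Xist gene of the B6 X chromosome. The 4 groups of 2 samples were the Hdac3+/+ line before DOX (0 hr) and following 24 hr in DOX at 1 µg/ml, and Hdac3-/- clones derived from that line by CRISPR/Cas9, sampled at the same times. HDAC3 is a histone deacetylase that works as part of the NCoR and SMRT co-repressor complexes.

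Some features of the groups limit what a comparison can show. The Hdac3-/- samples came from 2 independently picked single clones, so their spread includes differences between clones, whereas the Hdac3+/+ samples were duplicates of a single line. In its ChIP-seq, the paper reports some XO cells in a mutant sample. Here the median B6 share of allele-specific reads over 302 X-linked genes at 0 hr was 50.3% and 48.1% in Hdac3-/-. It was 49.7% and 50.1% in Hdac3+/+. The part of XO cells in the values below was not tested. All groups grew in serum with LIF and the 2i inhibitors, of which PD0325901 blocks MEK and CHIR99021 blocks GSK3. The levels below are therefore levels under MEK inhibition, with no uninhibited group beside them. No 24 hr sample without DOX was in the design, so DOX, Xist RNA and a further day of culture cannot be told apart. Fewer expressing cells and less RNA per cell also cannot be told apart in these bulk samples.

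In ESCs, FGF4 signals through FGF receptors to RAS, RAF, MEK and ERK, and this cascade moves the cells away from the naive state. ERK activity switches on its own brakes. DUSP phosphatases remove phosphate from ERK and related kinases, and Sprouty and SPRED proteins act upstream at the level of RAS and RAF. It also switches on the ETS factors ETV4 and ETV5 and immediate early genes such as Egr1, Fos and Ier3, and for this reason these transcripts are widely read as a measure of pathway output. Female ESCs with both X chromosomes active have a damped MAPK output, and the X-linked genes Dusp9 and Klhl13 are known regulators in that setting.

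The libraries held between 6940375 and 17125156 reads on exons, and 30.1% to 31.6% of these were assigned to the B6 or the Cast allele. Hdac3 had 39.4 to 43.4 CPM (reads per 1000000 reads) in the 4 Hdac3+/+ samples and 5.54 to 7.22 CPM in the 4 Hdac3-/- samples. Xist had 7.25 to 17.1 CPM at 0 hr and 1534 to 2050 CPM at 24 hr, so both labels held in every library. The 13 naive ESC markers summed to 6310 to 7443 CPM, with none under 1 CPM in a whole group, against 28.1 to 60.5 CPM for 7 fibroblast markers, of which 4 stayed under 1 CPM in each group. On chromosome 16, where Etv5 lies, replicate 2 of Hdac3-/- stood apart from the other libraries at both times, as described with Etv5. Etv4 was called without that replicate as well.

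Under 2i the 10 genes spanned nearly 3 orders of magnitude per length, as TPM (counts scaled by exon length and library). In Hdac3+/+ at 0 hr, Etv5 led with 679.6 ± 9.97 TPM and Spry2 followed with 94.5 ± 7.94 TPM (SD, n = 2 each). Ier3, a short early-response gene, had 14.5 ± 7.04 TPM and Spred1 8.79 ± 0.256 TPM (SD, n = 2 each), and this pair differed by less than the replicate spread of Ier3. Dusp6 and Dusp4 had 4.55 ± 0.743 and 4.43 ± 0.385 TPM (SD, n = 2 each) and could not be ordered. Egr1 with 3.53 ± 3.99 TPM and Fos with 2.14 ± 1.65 TPM (SD, n = 2 each) had a spread about as large as their mean. At the low end were Etv4 with 1.33 ± 0.310 TPM and Spry4 with 0.714 ± 0.328 TPM (SD, n = 2 each). In the Hdac3-/- samples at 0 hr the order was altered mainly by Etv4, which moved from rank 9 to rank 3.

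**Figure D1:**
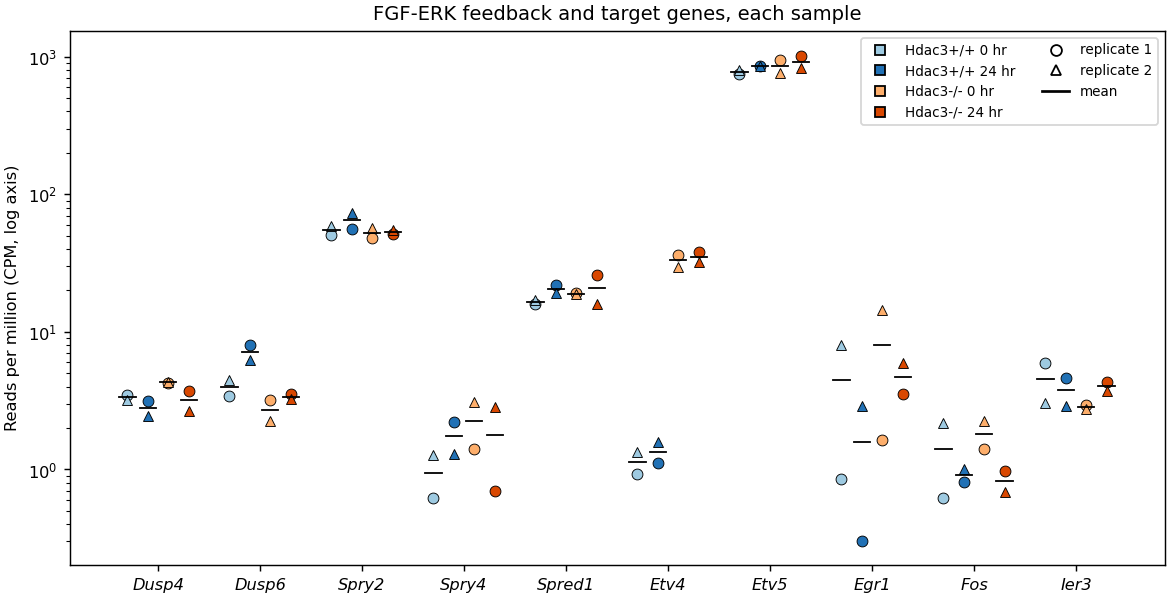
CPM (log axis) of the 10 genes in each of 8 samples, colored by genotype and time of DOX; circles are replicate 1, triangles replicate 2 and short lines group means (n = 2). Etv4 sits between 0.932 and 1.58 CPM in all Hdac3+/+ samples and between 29.8 and 37.9 CPM in all Hdac3-/- samples, while Etv5 and Spry2 stay within narrow ranges and Egr1 scatters between replicates.

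To ask whether loss of Hdac3 shifted this program before Xist induction, Hdac3-/- was compared with Hdac3+/+ at 0 hr. Etv4 was the single gene of the 10 that passed the test. It rose about 30.6-fold. None of the 10 fell. A gene was called at an adjusted p under 0.05 in edgeR's quasi-likelihood test, adjusted over all genes tested; 13.6% of 13226 genes were called in this comparison, 6.33% higher and 7.24% lower in Hdac3-/-, so 1 of 10 called is close to the background. The median log2 fold change was 0.35 over the 10 genes and 0.00 over all genes tested. The 10 include Spry4, which passed the filter on low values here only through the Hdac3-/- samples.

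Etv4, located on chromosome 11 (GRCm38, 101769742-101785371, minus strand), encodes an ETS activator of the PEA3 family. Its level was 0.932 and 1.35 CPM in the Hdac3+/+ samples at 0 hr, from 12 and 16 reads. In the Hdac3-/- samples it was 36.3 and 29.8 CPM, from 622 and 359 reads. The groups were far apart, and the log2 fold change was 4.93 with an SE of 0.25 (edgeR, adjusted p = 0.00031). After 24 hr of DOX the values were 1.11 and 1.58 CPM in Hdac3+/+ and 37.9 and 32.3 CPM in Hdac3-/-. The log2 fold change was then 4.76 with an SE of 0.25 (edgeR, adjusted p = 6.5e-05). Replicate 1 of Hdac3-/- was the higher of the pair at both times, by less than the difference between genotypes. The difference between genotypes did not detectably change with DOX, with an interaction of -0.16 (SE 0.39, edgeR, adjusted p = 1.0).

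Both alleles of Etv4 were read in the Hdac3-/- samples. At 0 hr, 202 of 406 allele-specific reads came from B6, a share of 49.8% with an exact 95% binomial interval of 44.8% to 54.7%. At 24 hr, 157 of 320 reads came from B6, or 49.1% with an interval of 43.5% to 54.7%. These intervals cover counting error only. The Hdac3+/+ samples held 12 and 13 allele-specific reads at the 2 times, too few for a useful share.

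Etv5, the other PEA3 factor of the set and located on chromosome 16 (GRCm38, 22381309-22439719, minus strand), was not called at either time. It had 749.0 and 792.6 CPM in Hdac3+/+ and 938.7 and 765.0 CPM in Hdac3-/- at 0 hr, and the groups overlapped. The log2 fold change was 0.22 (SE 0.11, edgeR, adjusted p = 0.22). It passed only when replicate 2 of Hdac3-/- at 0 hr was left out, at 0.36 (edgeR, adjusted p = 0.0041). At 24 hr it had 851.0 and 860.8 CPM in Hdac3+/+ and 1018 and 821.1 CPM in Hdac3-/-, again overlapping, with a log2 fold change of 0.13 (SE 0.12, edgeR, adjusted p = 0.50). Etv1, the remaining PEA3 gene, is named here after its values were seen. It rose at 0 hr from 21.8 and 23.8 to 37.7 and 29.9 CPM, a log2 fold change of 0.65 (SE 0.16, edgeR, adjusted p = 0.036), and did not pass at 24 hr at 0.43 (SE 0.15, edgeR, adjusted p = 0.096).

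**Figure D2:**
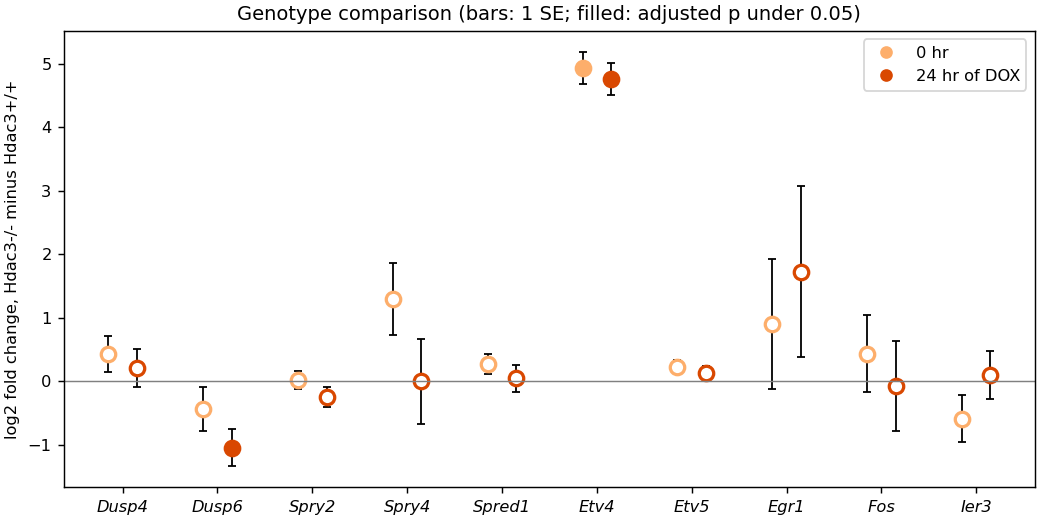
Log2 fold change of the 10 genes, Hdac3-/- minus Hdac3+/+, at 0 hr (light) and 24 hr of DOX (dark), with 1 SE from edgeR; filled points passed an adjusted p under 0.05. Etv4 lies at 4.93 and 4.76, Dusp6 is filled only at 24 hr at -1.04, and the error bars of Egr1 are the widest.

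Among the phosphatases, Dusp6, a cytoplasmic phosphatase selective for ERK, was lower in Hdac3-/- at 24 hr. It had 3.42 and 4.47 CPM in Hdac3+/+ and 3.21 and 2.24 CPM in Hdac3-/- at 0 hr, a log2 fold change of -0.44 (SE 0.34, edgeR, adjusted p = 0.44). At 24 hr it had 8.0 and 6.20 CPM in Hdac3+/+ and 3.52 and 3.25 CPM in Hdac3-/-. The groups did not overlap at either time. The log2 fold change at 24 hr was -1.04 (SE 0.29, edgeR, adjusted p = 0.049). This call sat at the threshold. It was lost with DESeq2 (adjusted p = 0.13), with voom and limma (0.054), with only the 4 samples at 24 hr in the fit (0.060), and on leaving out any sample of Hdac3+/+ or any 24 hr sample of Hdac3-/- (0.071 to 0.28). Dusp6 was counted on 27 to 79 reads per sample.

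Dusp4, a nuclear phosphatase induced by ERK, had 3.50 and 3.21 CPM in Hdac3+/+ and 4.26 and 4.31 CPM in Hdac3-/- at 0 hr. The groups did not overlap, yet the log2 fold change of 0.43 (SE 0.28, edgeR, adjusted p = 0.35) did not pass. At 24 hr it had 3.14 and 2.45 CPM in Hdac3+/+ and 3.69 and 2.66 CPM in Hdac3-/-, with overlap and a log2 fold change of 0.20 (SE 0.30, edgeR, adjusted p = 0.71).

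Of the Sprouty and SPRED inhibitors in the set, Spry2, Spry4 and Spred1, none was called between genotypes. Spry2 had 50.4 and 58.8 CPM in Hdac3+/+ and 48.3 and 56.9 CPM in Hdac3-/- at 0 hr, and 56.3 and 72.6 against 51.0 and 55.3 CPM at 24 hr. Its log2 fold changes were 0.02 (SE 0.14, edgeR, adjusted p = 0.94) and -0.25 (SE 0.16, edgeR, adjusted p = 0.34). Spred1 had 15.9 and 17.1 CPM in Hdac3+/+ and 19.0 and 18.7 CPM in Hdac3-/- at 0 hr, without overlap, and a log2 fold change of 0.27 (SE 0.16, edgeR, adjusted p = 0.29). At 24 hr the Hdac3-/- samples of Spred1 had 25.8 and 15.9 CPM and lay on both sides of the Hdac3+/+ samples at 22.0 and 19.2 CPM (log2 fold change 0.05, SE 0.21, edgeR, adjusted p = 0.92). Spry4 was the least abundant, with 8 to 37 reads per sample. It had 0.622 and 1.27 CPM in Hdac3+/+ and 1.40 and 3.07 CPM in Hdac3-/- at 0 hr, where the log2 fold change of 1.29 had an SE of 0.57 (edgeR, adjusted p = 0.17). Genes were tested if they exceeded 1 TPM in 2 or more samples, and at 0 hr Spry4 did so only in Hdac3-/-. It thus entered that test only through the group in which it was higher, and its value at 0 hr is a description. At 24 hr it had 2.23 and 1.30 CPM against 0.703 and 2.86 CPM, and a log2 fold change of -0.0029 with an SE of 0.67. This depth could not show a difference of Spry4 within that error.

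Among the immediate early genes, Egr1 differed between replicates at 0 hr in both genotypes and Fos mainly in Hdac3+/+, and none of the 3 was called between genotypes. Egr1, a zinc finger factor among the fastest responses to ERK, had 0.855 and 8.01 CPM in replicates 1 and 2 of Hdac3+/+ at 0 hr and 1.64 and 14.4 CPM in replicates 1 and 2 of Hdac3-/-. Replicate 2 was the higher in both genotypes and also at 24 hr, with 0.304 and 2.88 CPM in Hdac3+/+ and 3.52 and 5.91 CPM in Hdac3-/-. The genotype effect on Egr1 at 0 hr was 0.90 (SE 1.03, edgeR, adjusted p = 0.61), and it changed sign to -1.34 (edgeR, adjusted p = 0.014) without replicate 2 of Hdac3-/- and was 1.81 (edgeR, adjusted p = 1.6e-09) without replicate 1. Within each replicate number Egr1 was higher in Hdac3-/- at 0 hr, and with the replicate number as a block it was called at 0.94 (edgeR, adjusted p = 0.031). At 24 hr both Hdac3-/- samples lay above both Hdac3+/+ samples, and the effect was 1.72 (SE 1.35, edgeR, adjusted p = 0.45). With no filter on low values Egr1 was called at both times (edgeR, adjusted p = 0.013 and 0.00013), while its spread between replicates was the same. The call of Egr1 at 0 hr thus depended on how the replicates were treated.

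Fos, an AP-1 subunit, was also higher in replicate 2 at 0 hr, with 0.622 and 2.19 CPM in Hdac3+/+ and 1.40 and 2.24 CPM in Hdac3-/-. The Hdac3-/- values came from 24 and 27 reads, a far smaller split than that of Egr1. Fosb, named after its values were seen, had 0.466 and 1.60 CPM in Hdac3+/+ and 0.409 and 1.74 CPM in Hdac3-/-, again higher in replicate 2. Of the other immediate early and stress genes listed, Jun, Junb, Atf3 and Ier2 were also higher in replicate 2 at 0 hr in both genotypes. Zfp36, Nr4a1, Btg2 and Gadd45b were lower in replicate 2 in both genotypes. Dusp1 was lower in replicate 2 of Hdac3+/+ and higher in replicate 2 of Hdac3-/-. At 24 hr Fos had 0.810 and 1.01 CPM in Hdac3+/+ and 0.967 and 0.690 CPM in Hdac3-/-, with overlap and no common order of the replicates. Fos was counted on 7 to 27 reads and its genotype effects were 0.44 (SE 0.60, edgeR, adjusted p = 0.68) at 0 hr and -0.08 (SE 0.71, edgeR, adjusted p = 0.96) at 24 hr. Ier3 went the other way between replicates in Hdac3+/+, with 5.98 and 3.04 CPM at 0 hr and 4.66 and 2.88 CPM at 24 hr. In Hdac3-/- it had 2.92 and 2.74 CPM at 0 hr and 4.31 and 3.75 CPM at 24 hr, so that both Hdac3-/- samples lay below both Hdac3+/+ samples at 0 hr and the groups overlapped at 24 hr. Its effects were -0.59 (SE 0.37, edgeR, adjusted p = 0.34) and 0.10 (SE 0.38, edgeR, adjusted p = 0.89).

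At 24 hr the comparison of genotypes called 2 of the 10 genes, Etv4 higher and Dusp6 lower. Over all 13807 genes tested 12.9% were called, 6.01% higher and 6.9% lower in Hdac3-/-. The median log2 fold change was 0.07 over the 10 genes and 0.01 over all genes. This comparison has no control samples in common with that at 0 hr, but both use cells of the same line and clones.

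The change over 24 hr of DOX was then examined within each genotype. In Hdac3+/+, 0 of the 10 genes were called by edgeR, and 1 had an unadjusted p under 0.05; 30 of 13807 genes, or 0.217%, were called, all 30 X-linked, whereas the 10 genes are autosomal. With the replicate number as a block within each genotype, 1477 genes and 4 of the 10 passed instead (Dusp6 at 0.89, Spry2 at 0.25, Etv5 at 0.17 and Egr1 at -1.47), and the labels do not say that a number marks a shared culture. In the fit without that block, Dusp6 came closest. It went from 3.42 and 4.47 to 8.0 and 6.20 CPM without overlap, a log2 change of 0.87 (SE 0.29, edgeR, adjusted p = 0.46). Spry4 changed by 0.95 (SE 0.75, edgeR, adjusted p = 0.91), Spry2 by 0.25 (SE 0.15, edgeR, adjusted p = 0.85), Etv5 by 0.16 (SE 0.12, edgeR, adjusted p = 0.88) and Egr1 by -1.59 (SE 1.34, edgeR, adjusted p = 0.92). The median change was 0.19 over the 10 genes and 0.00 over all genes.

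In Hdac3-/-, again 0 of the 10 genes were called by edgeR, 0 had an unadjusted p under 0.05, and 3 of 13807 genes, or 0.0217%, were called, all X-linked. That fit did not pair the replicates, though same-numbered Hdac3-/- samples deviated together across genes (r = 0.71). Replicate 2 also stood apart on chromosome 16 at both times. With the replicate number as a block within each genotype, more genes passed, here and for the interaction, as counted further below. The values that follow are from the fit without that block. Fos changed by -1.12 (SE 0.62, edgeR, adjusted p = 1.0), from 1.40 and 2.24 to 0.967 and 0.690 CPM. Ier3 changed by 0.49 (SE 0.37, edgeR, adjusted p = 1.0) and Dusp6 by 0.28 (SE 0.30, edgeR, adjusted p = 1.0), while Etv4 was at 0.06 (SE 0.17, edgeR, adjusted p = 1.0). The median was 0.03. For the interaction of genotype and time, 0 of 13807 genes passed, or 0%, with 260 genes and 0 of the 10 at an unadjusted p under 0.05 (edgeR). Dusp6 had an interaction of -0.59 (SE 0.42, edgeR, adjusted p = 1.0), so its call in one genotype comparison and not the other is not shown to be a difference between times.

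Etv5 carried an imbalance between alleles that followed its chromosome. In the Hdac3+/+ samples 22.4% to 23.3% of its allele-specific reads came from B6. In Hdac3-/- the share was 22.8% at 0 hr and 21.6% at 24 hr in replicate 1, but 41.7% (exact 95% interval 40.2% to 43.2%) and 42.1% (40.4% to 43.7%) in replicate 2. The median B6 share of 307 chromosome 16 genes was 33.2% to 34.1% in all libraries except replicate 2 of Hdac3-/-, where it was 50.0% and 49.3%, while other autosomes had a median of 50.5% to 50.8% in every library. Among 9 chromosome 16 genes within 1 Mb of Etv5 with at least 100 allele-specific reads in every sample, 0 or 1 had a lower B6 share than Etv5 in each library except replicate 2 of Hdac3-/- at 24 hr, where 3 had. A Cast bias of Etv5 beyond that of the chromosome was thus seen in both genotypes.

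Relative to Hdac3+/+, the total of Etv5 and the chromosome 16 median were both lower in replicate 2 of Hdac3-/- than in replicate 1. In replicate 2 of Hdac3-/- the median of 433 chromosome 16 genes stood at 0.699 times the Hdac3+/+ mean at 0 hr and 0.711 times at 24 hr, and Etv5 stood at 0.993 and 0.959 times. In replicate 1 the chromosome 16 median was 0.944 and 0.976 times, and Etv5 was 1.22 and 1.19 times the Hdac3+/+ mean. Etv5 therefore lay above its chromosome's median in both Hdac3-/- replicates at both times. The Cast reads of Etv5 went from 279.0 and 279.2 CPM in Hdac3+/+ at 0 hr to 199.3 in replicate 2 of Hdac3-/-, and its B6 reads from 80.4 and 80.5 to 142.5 CPM. The copy number of chromosome 16 was not measured. A copy number that differed between libraries would bear on the Etv5 shares, CPM and fold changes given here, and its part in them was not tested.

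**Figure D3:**
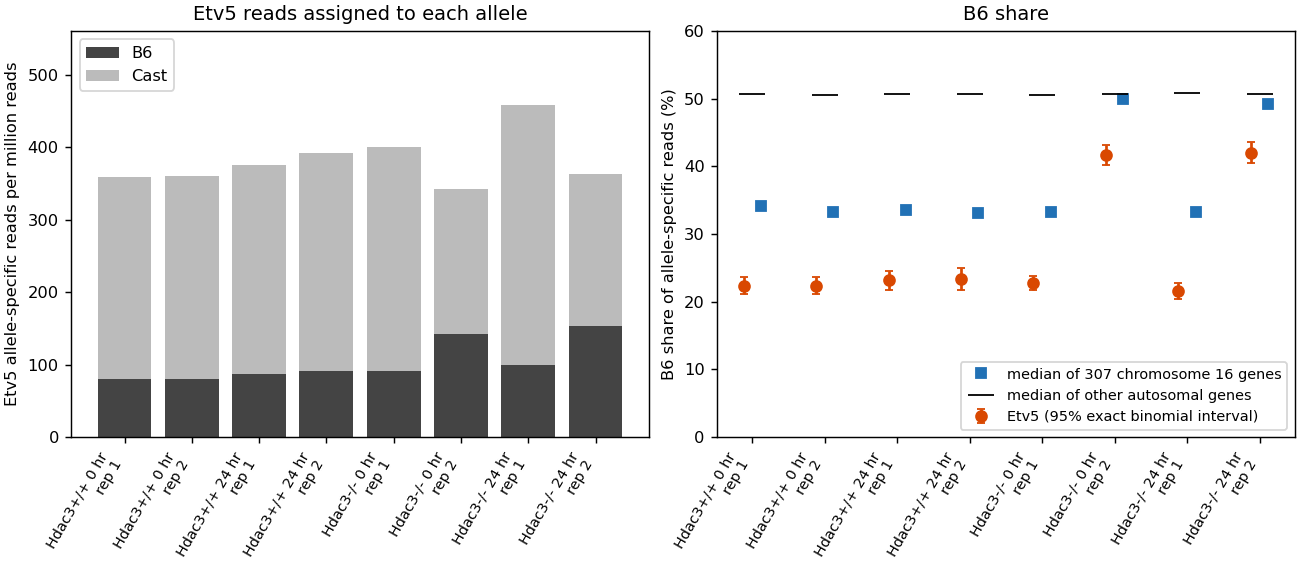
Left, Etv5 reads assigned to the B6 (dark) and Cast (light) allele, in CPM, in each sample; right, the B6 share of Etv5 with exact 95% binomial intervals (circles), the median of 307 chromosome 16 genes (squares) and the median of other autosomal genes (lines). Etv5 lies at 21.6% to 23.3% in 6 samples and at 41.7% and 42.1% in replicate 2 of Hdac3-/-, the samples in which the chromosome 16 median is 50.0% and 49.3%.

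The B6:Cast ratio was tested for the 3 genes of the set with at least 10 allele-specific reads in every sample, Etv5, Spry2 and Spred1. None was called in any of 4 comparisons (edgeR), where the share called over 9595 genes was 0.667% between genotypes at 0 hr, 1.07% at 24 hr, 1.61% with DOX in Hdac3+/+ and 0.406% with DOX in Hdac3-/-. Among these 3 genes, 1 had an unadjusted p under 0.05, in the comparison at 0 hr. That was Spry2, with a B6 share of 44.2% and 49.1% in Hdac3+/+ and 57.1% and 55.4% in Hdac3-/-, a log2 ratio change of 0.55 (SE 0.23, edgeR, adjusted p = 0.49). At 24 hr the shares overlapped, with 42.8% and 50.3% against 52.6% and 45.8%. Etv5 had a log2 ratio change of 0.66 (SE 0.33, edgeR, adjusted p = 0.61) at 0 hr, which became 1.31 (edgeR, adjusted p = 0.012) without replicate 1 and 0.03 without replicate 2 of Hdac3-/-, so 1 library set the value.

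Promoter sequence was looked up for the members whose changes are discussed. The RefSeq table (build GRCm38.p6) held 6 of the 10 genes, Spred1, Dusp6, Fos, Spry2, Etv5 and Ier3. Shown are the 250 bases before a RefSeq start site of Dusp6 (chr10:99262981-99263230, plus strand), the gene lower at 24 hr, and of Etv5 (chr16:22439571-22439820, minus strand), the most abundant one. The annotation used above starts Etv5 at 22439719 instead, so the Etv5 window lies partly inside the gene as given there. Capitals mark the core of the ETS motif, GGAA, on either strand (GGAA or TTCC).
Dusp6: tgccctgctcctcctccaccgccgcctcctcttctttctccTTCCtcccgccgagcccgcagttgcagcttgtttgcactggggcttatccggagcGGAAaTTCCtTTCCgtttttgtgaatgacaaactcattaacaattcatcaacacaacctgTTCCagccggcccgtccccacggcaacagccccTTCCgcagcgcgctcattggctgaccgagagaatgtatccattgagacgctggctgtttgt
Etv5: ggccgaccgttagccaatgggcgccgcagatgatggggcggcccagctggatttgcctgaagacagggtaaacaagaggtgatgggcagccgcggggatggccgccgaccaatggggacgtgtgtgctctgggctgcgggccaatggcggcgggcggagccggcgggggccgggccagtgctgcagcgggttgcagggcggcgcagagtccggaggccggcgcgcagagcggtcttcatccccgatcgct
The Dusp6 stretch held 6 matches and that of Etv5 0. Of 32851 promoters cut to the same length, 93.4% held at least 1 match, with a median of 3. A match is only a run of letters, and the lack of one in Etv5 says no more than that these letters are not in this window.

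To place the set in its pathway, 69 other FGF-ERK genes were grouped by role. At 0 hr, 62 of these were tested, of which 7 rose and 9 fell (edgeR), 25.8% against 13.6% of all genes, with a median of -0.02. At 24 hr 5 rose and 10 fell, or 24.2% against 12.9%. The lists were chosen with earlier results of these data known, so these shares are descriptions and do not test the pathway. In the DOX comparisons and for the interaction 0 of 62 were called by edgeR.

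Upstream, 1 of 7 ligands and receptors tested fell at both times and none rose. It was Fgfr2, an FGF receptor of the primitive endoderm, which went from 22.9 and 22.2 CPM to 4.73 and 3.65 CPM at 0 hr, a log2 fold change of -2.33 (SE 0.20, edgeR, adjusted p = 0.00087), and to -2.60 (SE 0.32, edgeR, adjusted p = 0.0018) at 24 hr. Of 7 adaptors, 0 were called at 0 hr and 1 fell at 24 hr. Of 13 RAS, RAF, MEK and ERK genes and their partners, 1 rose at each time, Ksr1 at 0 hr and Araf at 24 hr. At each time 12 did not pass.

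Among 12 other inhibitors tested, 1 rose and 3 fell at each time. Spred3 rose at 0 hr, from 2.80 and 1.69 CPM in Hdac3+/+ to 5.37 and 5.72 CPM in Hdac3-/-. Its log2 fold change was 1.38 (SE 0.33, edgeR, adjusted p = 0.031), and it did not pass at 24 hr (edgeR, adjusted p = 0.15). Nf1 was called higher at 24 hr only. Dusp7, Rasa1 and Klhl13 fell at both times. The X-linked Klhl13, an adaptor of a ubiquitin ligase, fell from 704.6 and 835.4 CPM to 224.9 and 116.7 CPM at 0 hr, a log2 fold change of -2.09 (SE 0.26, edgeR, adjusted p = 0.0032), and was at -1.86 (SE 0.32, edgeR, adjusted p = 0.0070) at 24 hr. Dusp9, also X-linked, had 274.1 and 218.9 CPM in Hdac3+/+ and 407.9 and 139.0 CPM in Hdac3-/- at 0 hr. The Hdac3-/- samples lay on both sides of Hdac3+/+, and it was not called at 0 hr or 24 hr (edgeR, adjusted p = 0.75 and 0.54). Of 18 other targets tested, 2 rose and 5 fell at 0 hr, and 1 rose and 4 fell at 24 hr. The largest change there was of Bhlhe40, a basic helix-loop-helix repressor, which fell from 91.6 and 61.8 CPM to 25.9 and 23.7 CPM at 0 hr, a log2 fold change of -1.54 (SE 0.18, edgeR, adjusted p = 0.0026), with the same -1.54 (SE 0.22, edgeR, adjusted p = 0.0033) at 24 hr. Among 9 immediate early and stress genes, 3 rose and 1 fell at 0 hr, and 2 rose and 1 fell at 24 hr. The median log2 fold change of each of these 6 lists at 0 hr lay between -0.12 and 0.06.

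**Figure D4:**
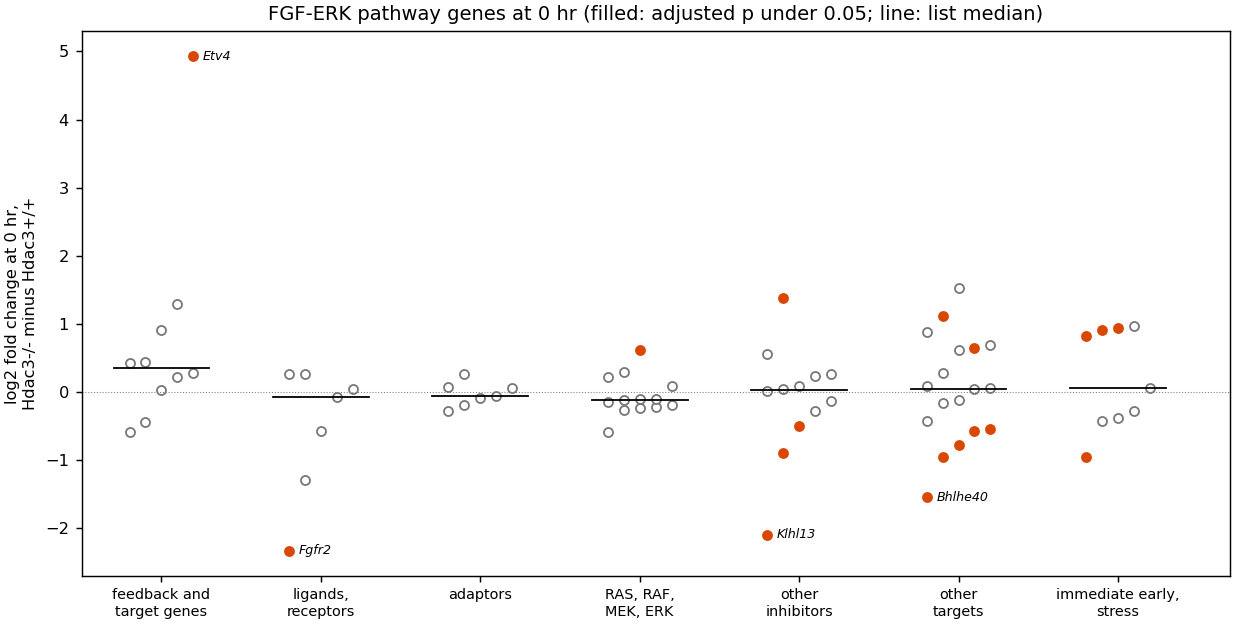
Log2 fold change at 0 hr, Hdac3-/- minus Hdac3+/+, of the 10 feedback and target genes and of 6 lists of other FGF-ERK genes. Filled points passed an adjusted p under 0.05 (edgeR), and lines are list medians. Jun, Junb and Ier2 stand in both right-hand lists, and Dusp1 stands among the other inhibitors and in the last list. Etv4 at 4.93 lies apart from all other points, with Fgfr2 at -2.33 and Klhl13 at -2.09 at the other end, while list medians stay near 0.

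Cell type markers gave values beside these. At 0 hr, where 13.6% of all genes were called, 4 of 13 naive markers rose (Nanog, Tbx3, Zfp42 and Prdm14) and 1 fell (Dppa3). Of 6 primed markers tested, 2 fell (Lef1 and Dnmt3b). Of 6 primitive endoderm markers tested, 1 rose (Dab2) and 1 fell (Sox7). These lists are too short to compare with that share. Naive markers summed to 6310 to 6374 CPM in Hdac3+/+ and 7220 to 7443 CPM in Hdac3-/- at 0 hr. Primed markers summed to 285.6 to 358.7 CPM in Hdac3+/+ and 173.0 to 209.9 CPM in Hdac3-/- at 0 hr. The primitive endoderm markers summed to 276.0 to 302.0 CPM and 231.1 to 287.4 CPM. The part of these marker levels in the values of Etv4, Dusp6 and Fgfr2 was not tested.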

How the data were processed

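RNA-seq of 8 samples was analysed, 2 each of Hdac3+/+ and Hdac3-/- ESCs at 0 hr and 24 hr of DOX, grouped by their labels. Per the paper's methods the authors removed rRNA reads and mapped the rest with Tophat to the refFlat annotation, and counted reads on exons by strand. The submitters' processing notes name TopHat2 2.1.0, featureCounts 1.5.1, bedtools and mm10. The deposited total and allelic counts are not normalized. The deposited d-score is a fraction, B6 over B6 plus Cast reads, given by the authors at 10 or more allelic reads; all 87507 values equalled the ratio of the counts within 0.0001. Reads carry no molecular identifiers, so intervals cover counting error only.

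CPM is the count over the summed count of the sample, and TPM used exon lengths of GENCODE M21, which matched all but 660 of 24542 symbols. Counts were tested with edgeR 4.0.16 (R 4.3.3), TMM normalization, quasi-likelihood and Benjamini-Hochberg adjustment over all genes that exceeded 1 TPM in 2 or more samples. The test at 0 hr used its 4 samples, as in the study's methods, and the other tests all 8 samples with 4 residual degrees of freedom. Allelic counts were tested in the same way with a term per sample. All tests are two-sided. With 2 samples a group, p-values measure the spread between these samples, and nothing in the labels says the Hdac3+/+ duplicates were separate cultures. The code was tested on simulated data.

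The members and gene lists were chosen with earlier results of these data known. All 10 members were named, with Hdac3 and Xist as checks, and among other pathway genes at most the 3 called ones with the largest change per comparison. Etv1, Fosb, Spred3, Nf1, Dusp7, Rasa1, Dusp9, Ksr1 and Araf were named outside that rule. So were the other immediate early and stress genes, Jun, Junb, Atf3, Ier2, Zfp36, Nr4a1, Btg2, Gadd45b and Dusp1. The 5 genes most like the members' mean pattern were also selected, of which 1 is not reported here. Alternatives were RLE and library-total scaling, DESeq2 1.42.0, voom and limma 3.58.1, other filters, a log2 fold change above 1, other samples in the fit, replicate blocks and leaving out each sample, where a lone sample left in a group was assumed to vary like the other groups. Intervals of 95% are exact Clopper-Pearson. Levels against Hdac3+/+ by chromosome used log2(CPM + 0.5). Tables were made in Python 3.11.15 (pandas 2.3.3), intervals with scipy 1.17.1 and plots with matplotlib 3.10.9.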

Additional observations from a re-analysis of the deposited data

How the results depend on the processing

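Etv4 was called between genotypes at 0 hr and 24 hr under every alternative run, with log2 fold changes of 4.66 to 5.22 and 4.49 to 4.996 on leaving out single samples. Between genotypes at 0 hr and 24 hr, 3107 and 2939 genes were called with no filter on low values, 819 and 701 with a log2 fold change above 1, and 326 to 3353 and 440 to 1990 without single samples. Of the 10 genes, 2 were called at 0 hr with no filter, 1 to 3 without single samples, and at 24 hr 1 with DESeq2, with voom and limma or with only the 4 samples at 24 hr, and 1 to 2 without single samples. For DOX in Hdac3+/+ the counts were 114 with DESeq2, 14 with voom and limma, 275 with no filter (1 of the 10 genes, Egr1), 292 with only that genotype's samples, 8 with a log2 fold change above 1 and 2 to 85 without single samples. For DOX in Hdac3-/- they were 16 with DESeq2, 36 with no filter and 1 with only that genotype's samples. The interaction had 1 gene with DESeq2 and 6 with no filter.

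A fit with the replicate number as a paired replicate block called 2946 genes and 2 of the 10 (Etv4, Egr1) at 0 hr, 3366 at 24 hr, 188 with DOX in Hdac3+/+ and 13 in Hdac3-/-. With the replicate block within each genotype, 1477 genes and 4 of the 10 (Dusp6 at 0.89, Spry2 at 0.25, Etv5 at 0.17 and Egr1 at -1.47) were called with DOX in Hdac3+/+, 260 genes in Hdac3-/- and 253 for the interaction. The labels give only a number; same-numbered samples deviated together with r = 0.71 between the Hdac3-/- groups and 0.23 to 0.34 otherwise, across genes, which are not independent replicates.

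Uncalled values that changed sign were Spry2 at 0 hr (-0.055 with library totals), Spry4 at 24 hr (0.0042 with RLE, 0.037 with DESeq2) and the Etv5 allelic ratio at 24 hr (-0.10 with the replicate block within genotype). Without single samples the ranges were -0.11 to 0.15 (Spry2, 0 hr), -1.34 to 3.28 (Egr1, 0 hr), -0.23 to 1.61 (Fos, 0 hr), -0.043 to 0.41 (Dusp4, 24 hr), -1.33 to 0.70 (Spry4, 24 hr), -0.34 to 0.34 (Spred1, 24 hr), -0.017 to 0.27 (Etv5, 24 hr), -0.33 to 0.12 (Fos, 24 hr) and -0.18 to 0.52 (Ier3, 24 hr). With DOX in Hdac3+/+ they were -0.030 to 0.53 (Etv4) and -3.80 to 0.80 (Egr1), with DOX in Hdac3-/- -0.063 to 0.21 (Etv4) and -0.062 to 0.24 (Etv5), and for the interaction -0.47 to 0.092 (Etv4). Allelic calls among the 10 genes ranged from 0 to 1 at 0 hr and at 24 hr; the allelic ratio of Etv5 at 24 hr ran from -0.14 to 1.26 and that of Spry2 from -0.058 to 0.38. The cause of these changes was not tested. Depth limits Spry4, Fos and Etv4 in Hdac3+/+, at 7 to 37 reads. It also limits Egr1, counted on 3 to 174 reads per sample, with 3 in replicate 1 of Hdac3+/+ at 24 hr.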

Other observations

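Within 300 kb of Etv4 on chromosome 11 lie 14 other annotated genes, of which 9 were tested at 0 hr and 3 were called (edgeR), in different directions. Over all genes tested 13.6% were called, and a count among 9 genes is a description. The neighbors are named here after their values were seen. Arl4d, a small GTPase gene 101.9 kb from Etv4, rose from 2.49 and 2.78 CPM in Hdac3+/+ to 12.6 and 9.95 CPM in Hdac3-/-, a log2 fold change of 2.17 (SE 0.26, edgeR, adjusted p = 0.0026), and of 2.00 (SE 0.23, edgeR, adjusted p = 0.0014) at 24 hr. Brca1, a DNA repair gene, fell by 0.37 (SE 0.10, edgeR, adjusted p = 0.045) and Dusp3, a phosphatase gene, fell by 0.97 (SE 0.26, edgeR, adjusted p = 0.045) on the log2 scale at 0 hr. At 24 hr Brca1 was called again at -0.42 (SE 0.087, edgeR, adjusted p = 0.017). Dusp3 was not called then, at -0.75 (SE 0.28, edgeR, adjusted p = 0.12). Dhx8, which lies 2.4 kb from Etv4 and between it and Arl4d, had 88.0 and 92.6 CPM in Hdac3+/+ and 94.5 and 104.1 CPM in Hdac3-/- (edgeR, adjusted p = 0.22).

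The mean of the standardized log2 CPM of the 10 genes over the 8 samples was compared with 12668 genes outside the lists. Among the 5 closest were Hilpda, Oma1, Nr2c2ap and Uchl5, with Pearson's r of 0.95, 0.89, 0.89 and 0.88 across the samples, which share libraries and depth. The mean score was -0.59 and -0.035 in Hdac3+/+ and 0.039 and 0.33 in Hdac3-/- at 0 hr, without overlap, and 0.094 and -0.044 against 0.32 and -0.12 at 24 hr, with overlap. Etv4 is part of this mean and a score without it was not made. The narrow separation at 0 hr is therefore not shown for the other genes of the set. These are descriptions of 8 samples.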
